A study of Mus musculus with 10 samples.

Results

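The 10 genes described here act in the making, breakdown and feedback control of the polyamines putrescine, spermidine and spermine. They were taken by name: the antizymes Oaz1, Oaz2 and Oaz3, the antizyme inhibitors Azin1 and Azin2, the synthesis enzymes Odc1, Amd1, Srm and Sms, and the acetylating enzyme Sat1. All 10 of 10 were found among the 15507 genes of the deposited table. The RNA came from germ cells of 5 wild type (WT) mice and 5 homozygous GRTH knock-in (KI) mice, all 45 days old, with 1 library prepared from each mouse. The KI mice carry a human GRTH (DDX25) gene with an arginine to histidine missense mutation, and GRTH is an RNA helicase of the testis. The study describes homozygous KI males as infertile, with round spermatids that do not elongate, so the genotypes differ in which germ cells the testis holds as well as in the helicase. The germ cell fraction was released from the tubules by enzymes and strained, without sorting of single cell types.

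Polyamines are small, positively charged molecules that bind nucleic acids, and cells keep their level within narrow limits. Ornithine decarboxylase, the product of Odc1, makes putrescine in the first step of the pathway. Antizymes bind this enzyme and restrain polyamine uptake, and some of them, though not every member, also send the enzyme to the proteasome. Antizyme inhibitors resemble ornithine decarboxylase without its activity and hold antizymes away from it. Oaz3 is known as the antizyme of haploid male germ cells and Azin2 as the antizyme inhibitor that is abundant in testis, whereas Oaz1 and Azin1 are transcribed in most tissues. An antizyme protein is completed only when the ribosome shifts by a base at the stop codon that ends the first reading frame, a step that polyamines promote.

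The sequence around that stop codon is the feature that defines the antizyme family, and it is shown for the 3 antizymes because their transcripts went different ways in the KI libraries. Each window holds 30 bases of exon from 5′ to 3′ in GENCODE vM21 (GRCm38), with the stop codon of the first frame in capitals. It was read from a transcript model whose exon runs through this stop codon. For Oaz1 this was a protein-coding model, for Oaz2 a processed transcript and for Oaz3 a retained-intron model. The window of Oaz1 lies at chr10:80828280-80828309 on the plus strand, that of Oaz2 at chr9:65686257-65686286 on the plus strand and that of Oaz3 at chr3:94436020-94436049 on the minus strand.
Oaz1: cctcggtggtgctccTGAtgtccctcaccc
Oaz2: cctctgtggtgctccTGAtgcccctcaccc
Oaz3: tgcctccagtgctccTGAgtccctaggagg
Oaz1 and Oaz2 were identical at 28 of the 30 bases. Oaz3 shared 13 bases of the window with Oaz1 and 15 with Oaz2. A run of 10 bases that ended with the stop codon was common to Oaz3 and both of the others. The annotated coding models leave out the first base of this stop codon, as the shift requires. The read counts measure transcripts only and hold no information on the shift itself.

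Values are normalized counts, that is reads per gene divided by a size factor of the library. Reads on genes were between 12722086 and 16422347 per library, with a median of 15203687 in WT and 15182116 in KI, and 3 reads corresponded to 2.61 to 3.62 normalized counts. The mouse Ddx25 gene, which the knock-in targets, fell from 8231 ± 2209 to 101 ± 91.7 normalized counts (SD, n = 5 per genotype), with 146, 194, 161, 2.88 and 1.84 in KI libraries 1 to 5. Reads were aligned to the mouse genome, so transcripts of the human gene may go uncounted and these values do not measure them. In the study's sequencing summary, libraries 1 to 3 of each genotype differ from libraries 4 and 5 in read quality. Results within these 2 sets are given for some genes only, and the sets can differ for the others too. The fraction was labelled as germ cells, and markers of spermatogonia, spermatocytes and spermatids were found in every library, but so were those of Leydig cells (summed level, 10875 to 27046) and Sertoli cells (7124 to 12568).

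Of the 10 genes, 2 fell in KI and 0 rose, where a call needed a 1.5-fold change and an adjusted p below 0.05 (limma, Benjamini-Hochberg over 15389 genes tested). The same rule called 14.4% of all genes tested, 8.22% lower and 6.13% higher, so the number called did not set the 10 genes apart. The 2 genes were Oaz3 and Azin2, the germ cell antizyme and the testis antizyme inhibitor. At the adjusted p alone, Odc1 was also lower, giving 3 of 10 beside 22.9% of all genes. Libraries of the 2 genotypes did not overlap for 4 of 10 (Oaz3, Azin2, Odc1 and Sat1), beside 17.7% of all genes. The median log2 fold change of the 10 was 0.04 and that of all genes was 0.03.

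**Figure D1:**
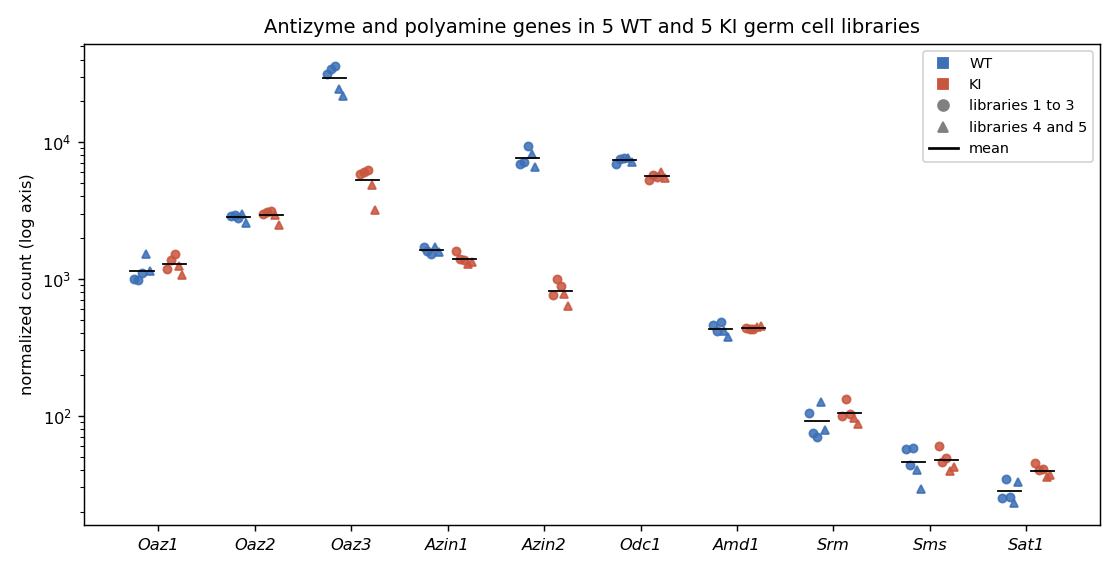
Normalized counts of the 10 genes in each library on a log axis (blue, WT; red, KI; circles, libraries 1 to 3; triangles, libraries 4 and 5; black line, mean of 5). The KI points lie far below the WT points for Oaz3 (3166 to 6266 against 21728 to 35967) and Azin2 (638 to 1003 against 6513 to 9303). The other 8 genes differ far less between genotypes, although Odc1 (lower in KI) and Sat1 (higher in KI) do not overlap.

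Among the antizymes, Oaz3 was by far the most abundant in both genotypes and the one that fell. It lies on chromosome 3 (94432414 to 94443915, minus strand). Oaz3 stood at 31122, 34264, 35967, 24259 and 21728 normalized counts in WT libraries 1 to 5. In KI libraries 1 to 5 it stood at 5863, 6043, 6266, 4879 and 3166. All 5 KI libraries lay below all 5 WT libraries, and within each genotype libraries 4 and 5 were the lowest. The means were 29468 ± 6226 in WT and 5243 ± 1276 in KI, a 5.62-fold difference (log2 fold change -2.50, SE 0.188, limma adjusted p = 2.64e-07). Taken alone, libraries 1 to 3 gave -2.48, and the other two gave -2.55. In these mixed cells, fewer cells that transcribe a gene and less RNA per cell cannot be told apart.

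In the GENCODE models, Oaz3 overlaps 2 genes on the opposite strand, Mrpl9 over 157 bases and Tdrkh over 2255 bases. By the gene positions of the deposited table, neither of them overlaps Oaz3. It is not stated whether the counting used strand, and an effect of these overlaps on the counts was not tested. Mrpl9, a mitochondrial ribosomal protein gene, went from 279 ± 13.3 to 358 ± 41.8 normalized counts (log2 fold change 0.35, limma adjusted p = 0.0239), below 1.5-fold. Tdrkh, which encodes a Tudor domain protein of the piRNA pathway, was at 662 ± 43.1 in WT and 676 ± 55.5 in KI (adjusted p = 0.870).

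Oaz1, the broadly transcribed antizyme on chromosome 10 (80826656 to 80829290, plus strand), did not pass the test. It was at 993, 978, 1102, 1532 and 1135 normalized counts in WT libraries 1 to 5 and at 1180, 1379, 1521, 1250 and 1064 in KI. The genotypes overlapped, and WT library 4 was higher than any KI library. The log2 fold change was 0.16 (95% interval -0.11 to 0.44, limma adjusted p = 0.404). Libraries 1 to 3 alone gave 0.40 (adjusted p = 0.00373) and libraries 4 and 5 alone gave -0.19 (adjusted p = 0.526), and the difference between these sets was not tested. Scaling by library totals gave 0.39 (adjusted p = 0.0402), where the median of all genes moved to 0.25. The table also places Oaz1-ps, a processed copy of Oaz1 that GENCODE has on chromosome 17, inside the position of Oaz1. It took 0.259% to 7.03% of the summed counts, and the sum of both differed by 0.15 on the log2 scale (exact two-sided permutation test, p = 0.310).

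Oaz2, the second broadly transcribed antizyme, was at 2823 ± 174 normalized counts in WT and 2915 ± 270 in KI. Its log2 fold change of 0.04 had a 95% interval of -0.15 to 0.24 (limma adjusted p = 0.783). Scaling by library totals gave 0.27 (adjusted p = 0.0311), close to the median of all genes under that scaling (0.25). A difference of the size seen for Oaz3 was outside the intervals of both Oaz1 and Oaz2.

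Divided by the length of the longest coding transcript, the antizymes could be compared with each other. Per kilobase, Oaz3 was at 31517 ± 6658 normalized counts in WT, against 1532 ± 94.3 for Oaz2 and 1072 ± 210 for Oaz1. In KI the same levels were 5608 ± 1365, 1582 ± 147 and 1194 ± 165. Oaz3 thus made up 92.1 ± 1.95% of antizyme transcripts in WT, with 89.5% to 93.8% over the libraries, and 66.3 ± 4.23% in KI, with 59.3% to 69.9%. The share of Oaz2 was 4.61 ± 0.819% in WT and 19.3 ± 2.50% in KI, and that of Oaz1 was 3.30 ± 1.16% and 14.5 ± 1.87%. As the shares sum to the whole, the higher shares of Oaz1 and Oaz2 in KI restate the lower level of Oaz3. Oaz3 remained the most abundant antizyme in each KI library.

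**Figure D2:**
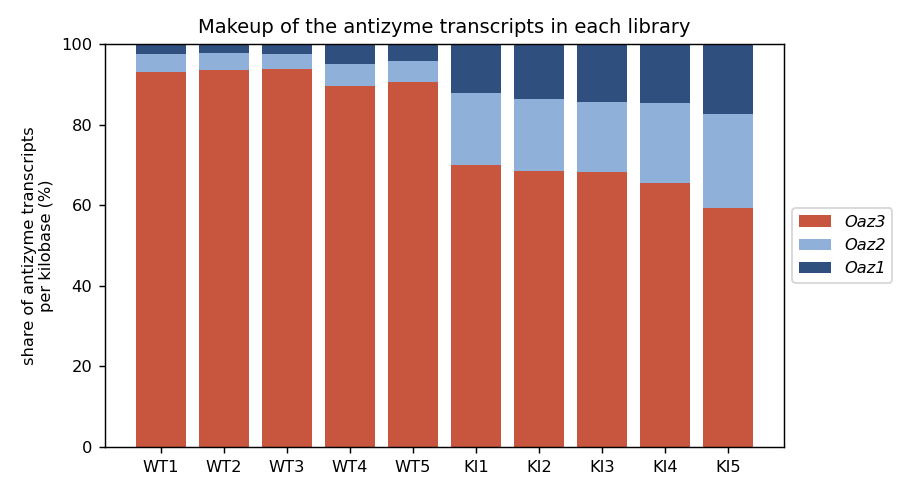
Stacked bars give the share of each antizyme in the summed antizyme level per kilobase (vertical axis, percent) in the 5 WT and 5 KI libraries. Oaz3 takes 89.5% to 93.8% in WT and 59.3% to 69.9% in KI, with the lowest share in KI library 5.

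Within a library the ratio of 2 genes does not depend on the scaling. The ratio of Oaz3 to Oaz1 in normalized counts was 15.8 to 35.0 in WT and 2.98 to 4.97 in KI. On the log2 scale the means differed by -2.67 and no KI library reached a WT library (exact two-sided permutation test over all arrangements of the libraries, p = 0.00794, adjusted over 3 ratios p = 0.0119). This p was the smallest that an unpaired test of 5 against 5 libraries allows. With the libraries paired by number, the exact paired permutation test cannot go below p = 0.0625. All 3 ratios were at that value.

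Of the antizyme inhibitors, Azin2 fell by more than any other of the 10 genes. It lies on chromosome 4 (128930233 to 128962442, minus strand). Azin2 was at 6942, 7182, 9303, 8131 and 6513 normalized counts in WT libraries 1 to 5. The KI libraries 1 to 5 held 765, 1003, 891, 771 and 638. The highest KI library stayed far below the lowest WT library. The means of 7614 ± 1115 and 813 ± 139 gave a 9.36-fold difference (log2 fold change -3.23, SE 0.127, limma adjusted p = 8.63e-10). Only 1 of the 15389 genes tested had a smaller p. Libraries 1 to 3 gave -3.13 and libraries 4 and 5 gave -3.37. Within WT, library 5 was the lowest and library 4 the second highest.

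Azin1, the broadly transcribed inhibitor on chromosome 15, differed little. Its WT libraries 1 to 5 stood at 1706, 1606, 1527, 1698 and 1562 normalized counts and its KI libraries at 1606, 1397, 1371, 1292 and 1326. KI library 1 lay within the WT range and the other 4 lay below it. The means were 1620 ± 80.2 and 1399 ± 123, with a log2 fold change of -0.21 (95% interval -0.40 to -0.03, limma adjusted p = 0.0840). The adjusted p was 0.0348 with the library number as a block, 0.0411 with a term for the read-quality set and 0.0390 without KI library 1. Scaled by library totals, the difference was 0.01 (adjusted p = 0.906), where the median of all genes was 0.25.

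The gap between the inhibitors narrowed. Per kilobase, Azin2 was at 3691 ± 540 normalized counts in WT and Azin1 at 333 ± 16.5. In KI they were at 394 ± 67.2 and 287 ± 25.2, with overlapping ranges. In normalized counts, not divided by length, the ratio of Azin2 to Azin1 was 4.07 to 6.09 in WT and 0.476 to 0.718 in KI. Per kilobase the ratio was 9.61 to 14.4 in WT and 1.12 to 1.69 in KI, so Azin2 stayed above Azin1 within each library. The log2 means differed by -3.02 (exact two-sided permutation test, p = 0.00794, adjusted over 3 ratios p = 0.0119).

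The synthesis enzymes moved far less. Odc1, which encodes ornithine decarboxylase and lies on chromosome 12 (17544794 to 17551505, plus strand), was at 6853, 7517, 7629, 7650 and 7132 normalized counts in WT libraries 1 to 5. It was at 5288, 5699, 5568, 6084 and 5429 in the KI libraries. All KI libraries lay below all WT libraries, and the spread within each genotype was the narrowest among the 3 genes that passed the adjusted p (coefficient of variation, 4.76% in WT and 5.42% in KI, against 21.1% and 24.3% for Oaz3). The means of 7356 ± 350 and 5614 ± 304 gave a 1.31-fold difference (log2 fold change -0.39, SE 0.0823, limma adjusted p = 0.00288), below the 1.5-fold threshold. Libraries 1 to 3 alone gave -0.41 and libraries 4 and 5 alone -0.36 (adjusted p = 0.132). Scaling by library totals gave -0.16 (adjusted p = 0.0798), where the median of all genes was 0.25.

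The ratio of Odc1 to its broadly transcribed antizyme Oaz1 was 4.99 to 7.69 in WT and 3.66 to 5.10 in KI. The log2 means differed by -0.56 with a small overlap between genotypes (exact two-sided permutation test, p = 0.0159, adjusted over 3 ratios p = 0.0159). Libraries 1 to 3 gave -0.81, and libraries 4 and 5 gave -0.17, the set that holds the high Oaz1 value of WT library 4.

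Amd1, which encodes the S-adenosylmethionine decarboxylase that supplies aminopropyl groups, was at 431 ± 42.0 normalized counts in WT and 440 ± 9.74 in KI (log2 fold change 0.04, 95% interval -0.16 to 0.23, limma adjusted p = 0.825). Scaling by library totals gave 0.27 (adjusted p = 0.0346), close to the median of all genes under that scaling (0.25). The table gives its near copy Amd2 the same position as Amd1, whereas GENCODE places it elsewhere on chromosome 10. Amd2 took 43.6% to 53.5% of the sum of both, so the split between them is uncertain. Their sum was 869 ± 83.1 in WT and 886 ± 54.5 in KI, a log2 difference of 0.03 (exact two-sided permutation test, p = 0.675).

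Srm, the spermidine synthase gene, was at 91.1 ± 23.8 normalized counts in WT and 104 ± 17.3 in KI (log2 fold change 0.21, 95% interval -0.17 to 0.59, limma adjusted p = 0.438). Sms, the spermine synthase gene on the X chromosome, was at 45.7 ± 12.2 and 47.5 ± 8.04 (0.08, 95% interval -0.36 to 0.52, adjusted p = 0.829). Their libraries ranged from 70.1 to 133 and from 29.2 to 60.2 normalized counts, with overlap between the genotypes. At these lower counts the intervals were wider than those of Odc1 and Amd1, and that of Srm still included a 1.5-fold difference.

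Sat1, on the X chromosome, encodes the acetyltransferase that marks spermidine and spermine for breakdown or export. It was at 25.1, 34.7, 25.4, 23.1 and 32.9 normalized counts in WT libraries 1 to 5. The KI libraries held 45.1, 40.0, 41.2, 35.6 and 36.8. Every KI library lay above every WT library, although the lowest KI and the highest WT value were less than 1 normalized count apart. The means of 28.2 ± 5.21 and 39.7 ± 3.78 gave a log2 fold change of 0.49 (95% interval 0.10 to 0.89), which did not pass the adjusted test (limma adjusted p = 0.0692). It passed with scaling by library totals (0.71, adjusted p = 0.0100) and by upper quartile (0.58, adjusted p = 0.0318). These scalings moved the median of all genes to 0.25 and 0.12.

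Ordered by level per kilobase, the WT libraries ran Oaz3, Azin2, Odc1, Oaz2, Oaz1, Azin1, Amd1, Srm, Sat1 and Sms. Azin2 and Odc1 overlapped over libraries (3157 to 4509 and 3104 to 3465), as did Oaz2 and Oaz1 (1380 to 1607 and 913 to 1430), and the other neighbours did not. In KI the order was Oaz3, Odc1, Oaz2, Oaz1, Azin2, Azin1, Amd1, Srm, Sat1 and Sms. Azin2 thus stood below Odc1, Oaz2 and Oaz1 there, and in KI the overlapping neighbours were Oaz2 with Oaz1 and Azin2 with Azin1.

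A wider list of 28 genes covered other polyamine breakdown, the supply of substrates, transport, and the spermidine-derived hypusine modification of the factor eIF5A. Of these, 23 were in the table and tested. In KI 1 was called lower and 1 higher. The same rule called 8.22% of all genes tested lower and 6.13% higher, so these counts did not set the list apart. The median log2 fold change was 0.11, against 0.03 for all genes. The gene called lower was Satl1, a relative of Sat1 on the X chromosome. It was at 964, 985, 914, 507 and 640 normalized counts in WT libraries 1 to 5 and at 296, 328, 266, 311 and 254 in KI. Both sets of WT libraries lay above all KI libraries, with libraries 4 and 5 the lowest in WT. The means were 802 ± 216 and 291 ± 30.7 (log2 fold change -1.42, SE 0.168, limma adjusted p = 2.16e-05).

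The gene called higher was Slc18b1, a vesicular polyamine transporter. It had few reads, with 9.25 to 25.1 normalized counts in WT and 23.9 to 41.4 in KI (log2 fold change 0.86, limma adjusted p = 0.0482), and the call was lost in 11 of 24 alternatives. By group, 1 of 4 breakdown genes, 0 of 7 substrate genes, 0 of 4 hypusine genes and 1 of 8 transport genes were called. Over all genes tested the share called was 14.4%, and 22.9% passed the adjusted p alone. At the adjusted p alone, Paox, the peroxisomal oxidase of acetylated polyamines (log2 fold change 0.54, adjusted p = 0.0244), and Oat, the ornithine aminotransferase (0.42, adjusted p = 0.0238), were also higher. With the library number as a block, Ass1, the argininosuccinate synthase gene, passed as well (0.62, adjusted p = 0.00418, against 0.0557 without it). The hypusine genes Dhps, Dohh, Eif5a and Eif5a2 had a median log2 fold change of -0.01, and 0 of 4 passed the adjusted p, or 1 of 4 with the block (Eif5a2, log2 fold change -0.25, adjusted p = 0.0469, against 0.108 without it).

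**Figure D3:**
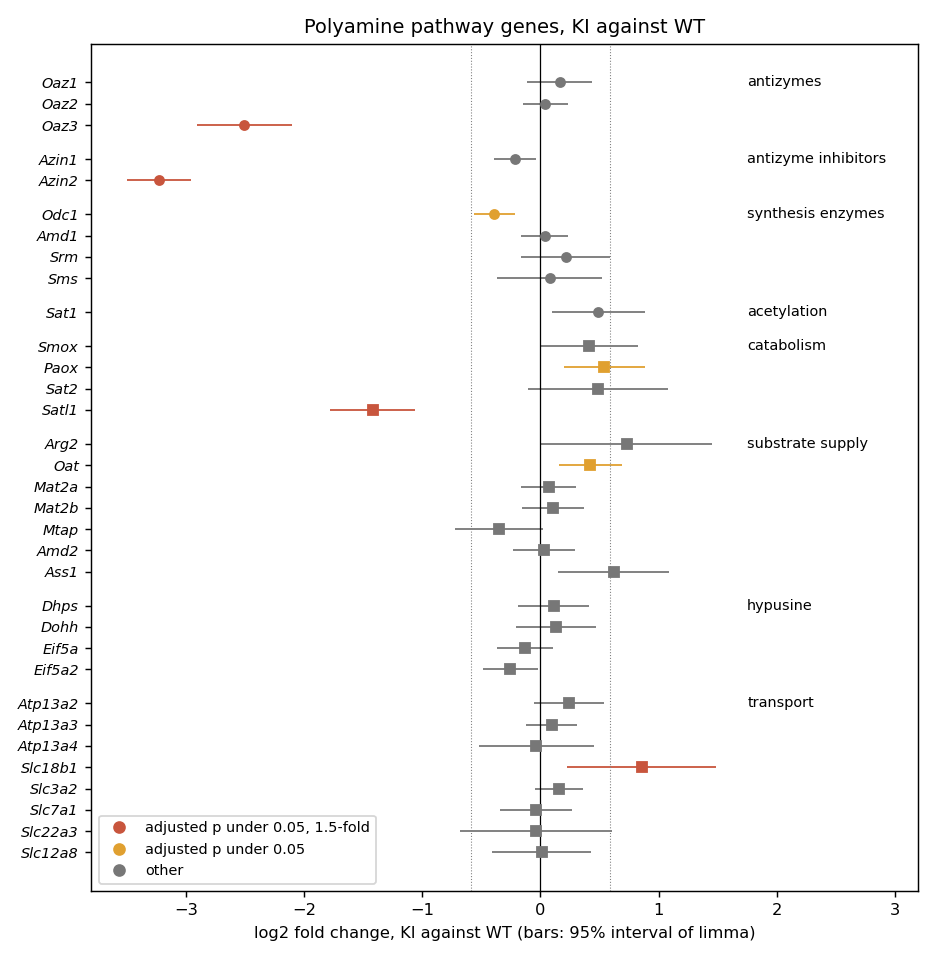
Log2 fold change of KI against WT (horizontal axis) with the 95% interval of limma for the 10 genes (circles) and the 23 other pathway genes tested (squares), grouped by role; dotted lines mark 1.5-fold. Oaz3 (-2.50), Azin2 (-3.23) and Satl1 (-1.42) stand apart on the left, and most of the others lie near 0.

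Of the germ cell lists, that of elongating spermatid markers fell along with Oaz3 and Azin2, and the lists of earlier stages moved far less. The study places mRNAs of Tssk6, Tnp2 and Prm2 in round spermatids ahead of their translation, so this list is not particular to elongating cells. It also cites earlier work in which GRTH bound Tnp2 and Prm2 mRNAs. Of 11 elongating spermatid markers, 11 were called lower in KI, with a median log2 fold change of -2.55 and a range from -3.30 for Prm2, a protamine gene, to -0.69 for Hils1, a histone H1-like gene. Their summed level was 243363 to 431327 normalized counts in WT and 36335 to 74418 in KI, and 0 of the 11 were at 0 in any library. Oaz3 (-2.50) was close to the median of this list and Azin2 (-3.23) was near its lower end. Of 8 round spermatid markers 1 was called lower (2 with the library number as a block), and 4 were lower at the adjusted p alone. Their median was -0.50 with a range from -0.61 to -0.13. Between the read-quality sets, Crem was at -0.60 in both, and every other marker of this list was lower in libraries 4 and 5. Catsper4 was at 0.19 in libraries 1 to 3 and -0.72 in libraries 4 and 5, and Izumo1 at 0.16 and -0.57. Of 10 spermatocyte markers 0 were called, with a median of -0.11, and of 7 spermatogonia markers 0 were called, with a median of 0.02. The value of Odc1 (-0.39) lay within the ranges of the round spermatid, spermatogonia and erythroid lists. The part of these stages in the results for Oaz3, Azin2 and Odc1 was not tested.

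Some somatic markers were higher in KI, as 4 of 7 Leydig cell markers (median 0.69; 6 of 7 with the library number as a block), 6 of 9 macrophage markers (0.69), 2 of the 5 peritubular myoid cell markers tested (0.44) and 2 of 5 endothelial markers (0.46) were called higher. Of 9 Sertoli cell markers 0 were called (0.11), and of 3 erythroid markers 1 was higher and 1 lower. None of these markers was at 0 in any library. The positive log2 fold changes of Sat1 (0.49) and Paox (0.54) lay beside these values, and the part of somatic cells in them was not tested.

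**Figure D4:**
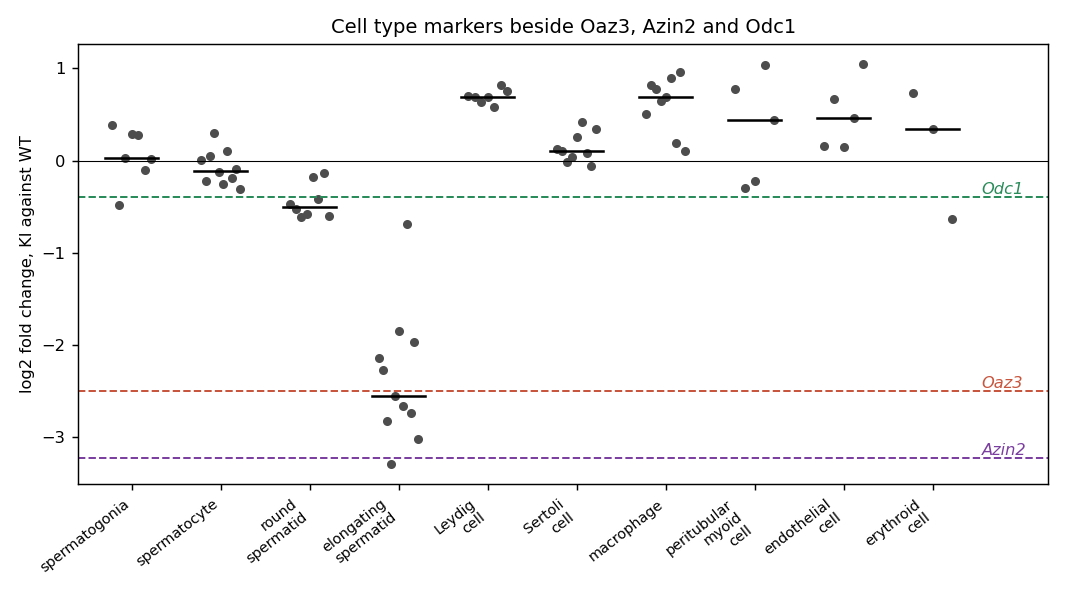
Each point is the log2 fold change of KI against WT of 1 marker gene (vertical axis), arranged by cell type with a bar at the median; dashed lines mark Odc1, Oaz3 and Azin2. The lines of Oaz3 and Azin2 cross the elongating spermatid points (median -2.55) and no other list, and that of Odc1 runs through the round spermatid, spermatogonia and erythroid points.

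The genes whose pattern was most like those of Oaz3, Azin2 and Odc1 were read from the correlation of log2 values over the 10 libraries among 10833 genes tested with a mean of at least 100 in the higher genotype. The points share the genotype difference, so r is given as a description, beside its value after each genotype's mean was removed. Closest to Oaz3 was Prm2 (r = 0.999, and 0.994 within genotypes), followed by Gm11780, 1700009J07Rik, Acte1 and Tmem56, with r of at least 0.998. Prm2 also had its lowest WT values in libraries 4 and 5. Closest to Azin2 was Rcc1, which encodes the nucleotide exchange factor of Ran (r = 0.997, and 0.892 within genotypes), followed by Bri3bp, Spem2, 5031439G07Rik and the kinase gene Pim1, which fell to 0.596 within genotypes. Closest to Odc1 was Pcmt1, a protein repair methyltransferase gene (r = 0.991, and 0.917 within genotypes), followed by G6pc3, Tcp11, Nfkbib and Rd3. The log2 fold changes of these 5 ran from -0.91 for Tcp11 to -0.40 for Pcmt1.

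**Figure D5:**
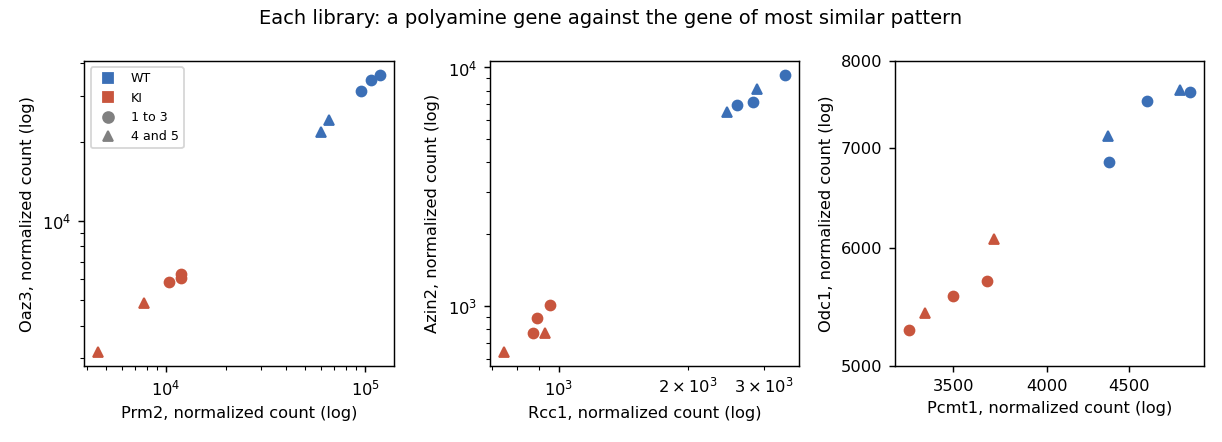
Normalized counts of Oaz3, Azin2 and Odc1 (vertical, log axes) against those of Prm2, Rcc1 and Pcmt1 (horizontal, log axes) in the 10 libraries (blue, WT; red, KI; circles, libraries 1 to 3; triangles, libraries 4 and 5). Oaz3 and Prm2 fall along a line also within each genotype (r = 0.994 with genotype means removed), while Azin2 and Rcc1 are looser (0.892).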

How the data were processed

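Total RNA of germ cells from 5 WT and 5 KI mice was sequenced as 1 paired-end library per mouse, with samples grouped by their labels. Trimmed reads were aligned by the authors with STAR (build mm10). Counting used the Partek E/M model on RefSeq_v91, and the deposited signal is the count of a gene in a library divided by that library's DESeq2 size factor. As a check, 100% of the values under 5000 reads came out as whole reads (tolerance 0.1 read). Every column was assigned to a library. RefSeq and GENCODE vM21 gene models can differ, and reads shared by near copies may have been split by the E/M model.

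Low genes were removed with edgeR's filterByExpr (version 4.0.16) on the recovered reads, and the remaining 15389 were fitted with limma (version 3.58.1, R 4.3.3) with a variance trend on log2(value + 1), so fold changes of low genes are understated. The Benjamini-Hochberg adjustment ran over all of them, and genes were called at an adjusted p under 0.05 and 1.5-fold, the thresholds of the study. Ratios were tested with exact permutation tests (scipy 1.17.1). The fit was tested on simulated data. Alternatives were other scalings, edgeR's quasi-likelihood test, DESeq2 (version 1.42.0), other pseudocounts and filters, a replicate block, the read-quality sets and leaving out each library. Deviations from the genotype means correlated between libraries of the same number in 5 of 5 pairs (r 0.105 to 0.462). Libraries of different number in the same read-quality set had a mean r of 0.134, above the lowest of these pairs. For 4 of the 5 WT libraries, the KI library of the same number gave the highest r. The labels state no pairing, so the replicate block was used as an alternative only. With a filter at a mean of 10 the lowest r of a pair was 0.0980.

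The 10 genes and the lists were chosen with earlier results of these data known. All 10 genes are named, as are other pathway genes that were called, overlapping genes and, for Oaz3, Azin2 and Odc1, the 5 genes of highest r. Paox, Oat, Ass1, Eif5a2, Spaca7, Hsd3b1 and Lhcgr were named after their values were seen.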

Additional observations from a re-analysis of the deposited data

Results flagged for a closer look

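In WT, Oaz1 stood at 1531.6 normalized counts in library 4, apart from the other 4 libraries, the next of which was at 1135 (Dixon's criterion for groups of 5). It was 1 of 30 groups tested, and chance marks about 1 in 20.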

How the results depend on the processing

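Oaz3 and Azin2 were called lower in all 24 alternative fits (log2 fold changes, Oaz3 -2.61 to -2.28). Scaling by library totals moved the median of all genes from 0.03 to 0.25 and the share of calls that were higher from 42.7% to 73.1%; upper quartile scaling gave 55.8%. Library totals gave 789 genes lower and 2145 higher, libraries 4 and 5 alone gave 472 higher, and the adjusted p alone gave 2044 lower and 1485 higher, against 1265 lower and 944 higher. The other pathway genes called numbered 7 with library totals, 4 with upper quartile scaling, 1 with edgeR's quasi-likelihood test and TMM, 1 in libraries 4 and 5 alone and 4 at the adjusted p alone, against 2, and 1 to 3 when single libraries were left out. The cause was not tested. With the replicate block 1343 genes were lower and 1067 higher, and it added the calls of Ass1, of the round spermatid marker Spaca7 and of the Leydig cell markers Hsd3b1 and Lhcgr among the genes listed, and it removed 0. The exact paired permutation test of the ratios cannot go below p = 0.0625, and all 3 were at that value.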
